A study of Mus musculus with 8 samples.

Results

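The 36 genes described here encode the proteins that take up, activate and oxidize fatty acids in mitochondria and peroxisomes, the enzymes of ketone bodies, and 3 further targets of the nuclear receptor PPARA (Pdk4, Fgf21 and Angptl4). They were taken as a fixed list, and every probe that is not a control and whose accession names one of them in the RefSeq gene table was used. All 36 were found among the 21612 genes named on the array, with 45 probes, and 35 of them were tested. Gene expression had been measured in AML12 cells, a hepatocyte line from the liver of a mouse that carries a transgene for human TGF-alpha, in 4 control samples and 4 samples treated with irisin, the peptide cleaved from Fndc5. Control cells received no irisin and treated cells received 0.5 µg/ml irisin, and both were kept for 24 h in DMEM F-12 medium with 10% fetal bovine serum. Each sample was read on 1 Agilent array with a single dye, Cy3. The labels call the samples of a group replicates without naming separate cultures, so the p-values measure the spread between these samples, which may be technical.

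Fatty acids enter the cell with the help of transport proteins, are bound to coenzyme A by acyl-CoA synthetases, and reach the mitochondrial matrix as carnitine esters. There each turn of the beta-oxidation spiral oxidizes, hydrates, oxidizes again and cleaves the chain, and the electrons of the first step pass through the electron transfer flavoprotein to the respiratory chain. In fasted liver much of the acetyl-CoA is turned into ketone bodies, and PPARA raises the transcription of many of these genes when fatty acids are plentiful.

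The promoters of 4 genes are shown because the results turn on them. Slc25a20 and Slc27a2 were the members called in each direction. Etfa and Etfb encode the subunits of one protein, with log2 differences of opposite sign. Neither of these 2 genes was called, and the difference of Etfb changed sign under another scaling described below. Each line holds 250 bases before and 50 bases from the start of the gene, 5′ to 3′, from RefSeq on GRCm38.p6. Capitals mark the nuclear receptor half-site AGGTCA, the CCAAT box and the GC box GGGCGG on either strand. The windows are chr9:108661886-108662185 on the + strand for Slc25a20, chr2:126552774-126553073 on the + strand for Slc27a2, chr9:55512194-55512493 on the - strand for Etfa and chr7:43443822-43444121 on the + strand for Etfb.
Slc25a20: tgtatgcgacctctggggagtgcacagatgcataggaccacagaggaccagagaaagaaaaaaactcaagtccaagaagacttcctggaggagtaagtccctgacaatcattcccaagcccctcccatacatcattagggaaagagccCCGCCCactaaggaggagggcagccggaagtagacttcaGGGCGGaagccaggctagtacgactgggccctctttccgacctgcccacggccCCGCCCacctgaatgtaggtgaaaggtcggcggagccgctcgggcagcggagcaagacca
Slc27a2: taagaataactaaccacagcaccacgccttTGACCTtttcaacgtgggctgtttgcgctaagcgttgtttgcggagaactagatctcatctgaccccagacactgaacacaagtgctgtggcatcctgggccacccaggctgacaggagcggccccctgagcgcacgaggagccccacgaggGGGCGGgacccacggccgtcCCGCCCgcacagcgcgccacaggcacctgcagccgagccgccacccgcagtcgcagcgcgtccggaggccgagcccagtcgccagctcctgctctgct
Etfa: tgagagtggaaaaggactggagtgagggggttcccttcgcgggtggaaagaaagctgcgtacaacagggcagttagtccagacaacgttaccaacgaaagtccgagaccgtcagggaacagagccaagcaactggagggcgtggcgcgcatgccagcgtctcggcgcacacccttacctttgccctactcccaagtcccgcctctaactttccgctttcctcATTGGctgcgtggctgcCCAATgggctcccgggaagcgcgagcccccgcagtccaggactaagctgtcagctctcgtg
Etfb: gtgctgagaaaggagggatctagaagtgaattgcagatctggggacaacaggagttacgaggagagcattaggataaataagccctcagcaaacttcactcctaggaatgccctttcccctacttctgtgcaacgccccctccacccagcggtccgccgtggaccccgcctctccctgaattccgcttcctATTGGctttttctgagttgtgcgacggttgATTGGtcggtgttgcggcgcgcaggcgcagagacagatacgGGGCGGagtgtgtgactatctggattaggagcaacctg
The Slc27a2 window held 1 half-site and 2 GC boxes, and the Slc25a20 window held 3 GC boxes. The Etfa and Etfb windows each held 2 CCAAT boxes, with 1 GC box in Etfb. Promoters were found for 31 of the 36 genes (33 promoters). The half-site AGGTCA was in 5 of these 33 (15.2%), those of Acadm, Acadvl, Cpt1a, Echs1 and Slc27a2, against 16.3% of all 32851 promoters of the table. PPARA binds with its partner RXR to a direct repeat, the half-site followed, after any 1 base, by a copy of itself. Its exact match was in none of the 33 and in 0.0396% of all promoters. At so low a share none would be found in nearly any 33 promoters, so its absence says nothing about PPARA at these genes. The CCAAT box was in 42.4% of the 33 against 37.4%, and the GC box in 72.7% against 35.7%. These are matches of letters and not sites of binding.

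Values below are the log2 of the processed signal less that of the array's 75th percentile, so that 0 is the 75th percentile, and a difference is irisin minus control on that scale. Differences were tested with limma over 24093 probes, and a gene was called when it differed by at least 1.5-fold with a Benjamini-Hochberg adjusted p under 0.05. The probe with the highest mean signal stands for its gene. Since probes differ in their response, the level of one probe is not set against that of another. The signal at the 75th percentile averaged 472 ± 70.1 in control arrays and 783 ± 71.6 in irisin arrays (SD, n = 4 in each group). Each group had a slide and a scan of its own, and for every result the treatment cannot be told apart from the slide or the scan. All 15 hepatocyte markers examined were well above background on all arrays and limma called none at both thresholds. Apoa2 (-0.42), Trf (-0.39) and Krt18 (-0.47) were under 1.5-fold but lower on every irisin array, with adjusted p between 0.00282 and 0.0204 from limma. Of 19 markers of stellate, endothelial, blood and biliary cells, 8 were tested and Pecam1 was called, at a log2 difference of -0.61 (adjusted p = 0.00214 from limma). Kdr (-0.56) and Csf1r (-0.49) were lower at an adjusted p of 0.0044 and 0.00139 from limma but under 1.5-fold. The other tested markers were Col1a1 (0.0064), Cd68 (0.0062), Krt19 (-0.070), Krt7 (-0.084) and Sox9 (-0.029), with adjusted p between 0.550 and 0.981 from limma. No array measured Col3a1, Pdgfra, Pdgfrb, Dcn, Lrat, Des, Cdh5 or Tek well above background. Pecam1 was not called with any of the 4 other scalings given further on.

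With scaling to the 75th percentile, most genes of fatty acid oxidation and ketone bodies differed little between irisin-treated and control cells. With scaling to spike-in controls, which moved the median of all genes to 0.51, 15 members were called up-regulated, against 33.3% of all tested genes. The median of the members was then 0.57. The calls and values that follow are with the 75th percentile unless another scaling is named. Slc25a20, the carnitine-acylcarnitine carrier, was the only member called up-regulated, at 1.59-fold. Slc27a2, a fatty acid transporter and very long chain acyl-CoA synthetase, was the only one called down-regulated, at 1.72-fold lower. The other 33 tested genes were not called. Over all 14312 tested genes, 0.531% were called up-regulated and 10.2% down-regulated. The median log2 difference of the 35 genes was -0.0038, and that of all tested genes was -0.064. The members lay on both sides of 0, with 16 above it and 19 below. Before adjustment 9 of the 35 had a p under 0.05, 4 higher and 5 lower, against 29.5% of all tested genes. The adjusted p alone was under 0.05 for 2 higher genes (Slc25a20 and Etfa) and 2 lower ones (Slc27a2 and Slc27a4), against 2.65% and 17.9% of all tested genes. In 4 genes (Acsl1, Slc25a20, Etfa and Hsd17b4) every irisin array was above every control array, as in 4.14% of all tested genes. In Slc27a2, Slc27a4 and Acaa1a every irisin array was below every control array, as in 19.6% of all tested genes. In Decr1 every irisin array was below the control arrays that had a value, but the share does not count genes with a missing value. Taken singly, Acsl1, Slc25a20, Etfa, Hsd17b4, Slc27a2, Slc27a4 and Acaa1a each had p = 0.0286 in an exact two-sided permutation test. It is the smallest p that 4 arrays a group can give. Any gene whose groups do not overlap gets this p, so it adds nothing to the separation by which these genes were picked. Decr1, with 1 value missing, was not run. In bulk RNA, less transcript per cell and fewer cells that carry it cannot be told apart.

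**Figure D1:**
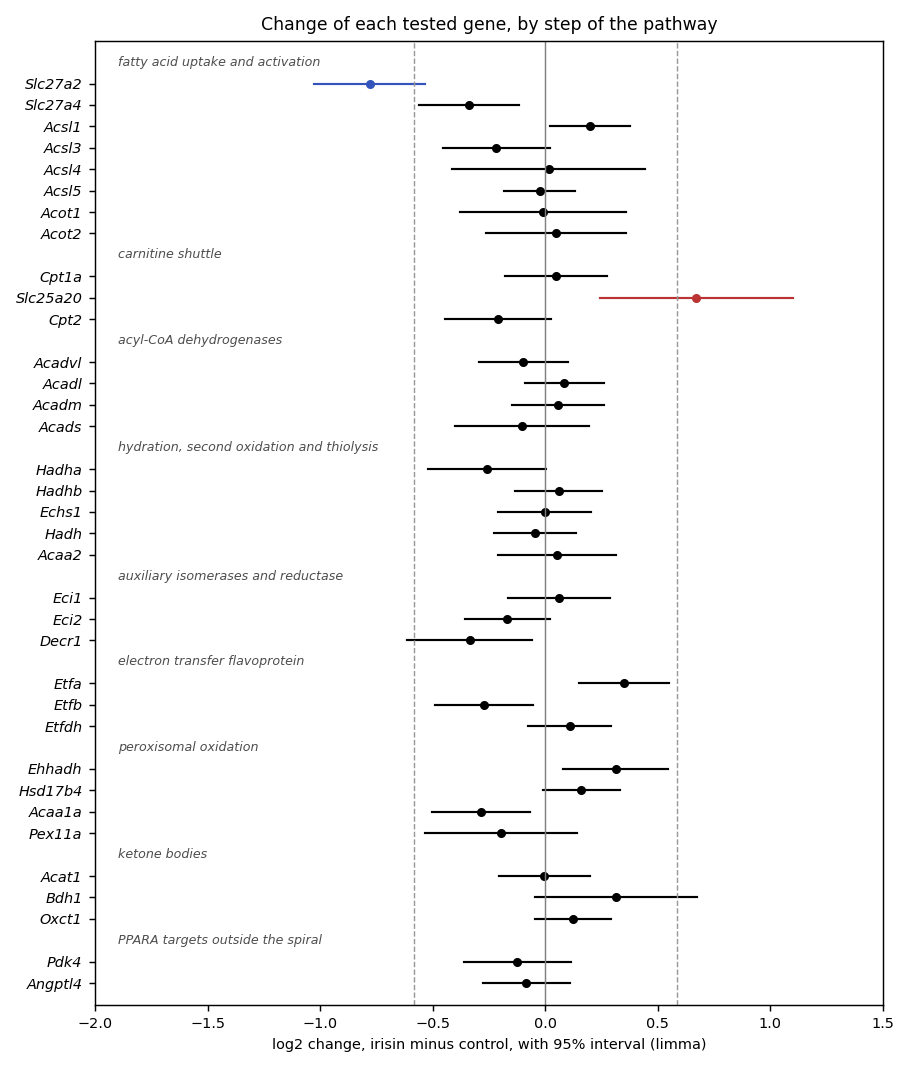
Log2 difference (irisin minus control, horizontal axis) of each of the 35 tested genes with its 95% interval from limma, ordered by step of the pathway, with dashed lines at 1.5-fold. Red marks the gene called up-regulated (Slc25a20) and blue the gene called down-regulated (Slc27a2), and 31 of the 35 intervals lie between the dashed lines.

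The limma intervals hold only the spread among arrays within a group, at scaling to the 75th percentile. They leave out the slide, the scan and the choice of scaling, so they do not bound the effect of irisin itself. The median standard error of the 35 genes was 0.10 on the log2 scale. For 31 of the 35 the 95% interval of the difference lay within 1.5-fold in both directions, which held for 75.2% of all tested genes. The 4 exceptions were Slc27a2, Slc25a20, Decr1 and Bdh1.

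Fatty acid uptake and activation was represented by 8 genes. Slc27a2 had a log2 signal of -5.63, -5.66, -5.44 and -5.43 in control cells and of -6.41, -6.55, -6.14 and -6.17 in irisin-treated cells, always in the order of replicates 1 to 4. All irisin arrays were below all control arrays. The log2 difference was -0.78 (standard error 0.11, adjusted p = 0.000567 from limma). The gene was called with each array left out in turn. Its probe was dim, in the lowest decile of the tested genes by mean signal, where the median of all genes was -0.57. Among the 3 dimmest deciles 31.7% of the tested genes were called down-regulated, against 1.02% in the other 7. With quantile normalization Slc27a2 was at -0.31 and with cyclic loess at -0.31, and it was called with neither. Slc27a4, a related transporter with synthetase activity, had an adjusted p of 0.0296 from limma at a log2 difference of -0.34, which is under 1.5-fold.

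The long-chain acyl-CoA synthetases bind fatty acids to coenzyme A, and none of the 4 measured was called. Acsl1, the main form of liver and fat, had a log2 signal of 1.45, 1.26, 1.38 and 1.36 in control cells and of 1.65, 1.59, 1.49 and 1.52 in irisin-treated cells. The irisin arrays lay above the control arrays by a small margin, at a log2 difference of 0.20 (standard error 0.080, adjusted p = 0.106 from limma). A second, dimmer probe of Acsl1 was at -0.0049. The differences of Acsl3 (-0.22), Acsl4 (0.015) and Acsl5 (-0.024) had adjusted p between 0.183 and 0.969 from limma, and for Acsl5 the 95% interval ran from -0.18 to 0.13. Acot1 and Acot2, acyl-CoA thioesterases of the cytosol and the mitochondria that release the fatty acid again, were at -0.0088 and 0.048. These neighboring genes on chromosome 12 are close paralogs, so their probes may share transcripts and the values are uncertain.

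The carnitine shuttle carries the activated chains across the mitochondrial membranes. Cpt1a, which forms acylcarnitine at the outer membrane and sets the rate of entry, had a log2 signal of 3.40, 3.41, 3.69 and 3.49 in control cells and of 3.33, 3.59, 3.61 and 3.65 in irisin-treated cells. The groups overlapped, with a log2 difference of 0.046 (95% interval -0.18 to 0.27, adjusted p = 0.805 from limma). Its second probe was at -0.034. Slc25a20, which exchanges acylcarnitine for free carnitine at the inner membrane, had a log2 signal of -1.66, -1.54, -1.48 and -1.53 in control cells and of -1.39, -0.33, -0.67 and -1.12 in irisin-treated cells. The control arrays lay close together, whereas the irisin arrays were spread, and irisin replicate 1 was only slightly above the highest control array. The log2 difference was 0.67 (standard error 0.19, adjusted p = 0.0273 from limma). The increase was 0.66 with quantile normalization (adjusted p = 0.051 from limma), 0.69 with cyclic loess, where it was called, and 0.58 with normexp background correction, just under 1.5-fold. With single arrays left out it lay between 0.49 and 0.84. It was not called without control replicate 1 (0.64), 2 (0.68) or 4 (0.68) or without irisin replicate 2 (0.49) or 3 (0.60). The methods' test, run on the same values, did not call it either (adjusted p = 0.105). Cpt2, which returns the chain to coenzyme A in the matrix, was at -0.21 (95% interval -0.45 to 0.026), and its dimmer probe at -0.13.

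**Figure D2:**
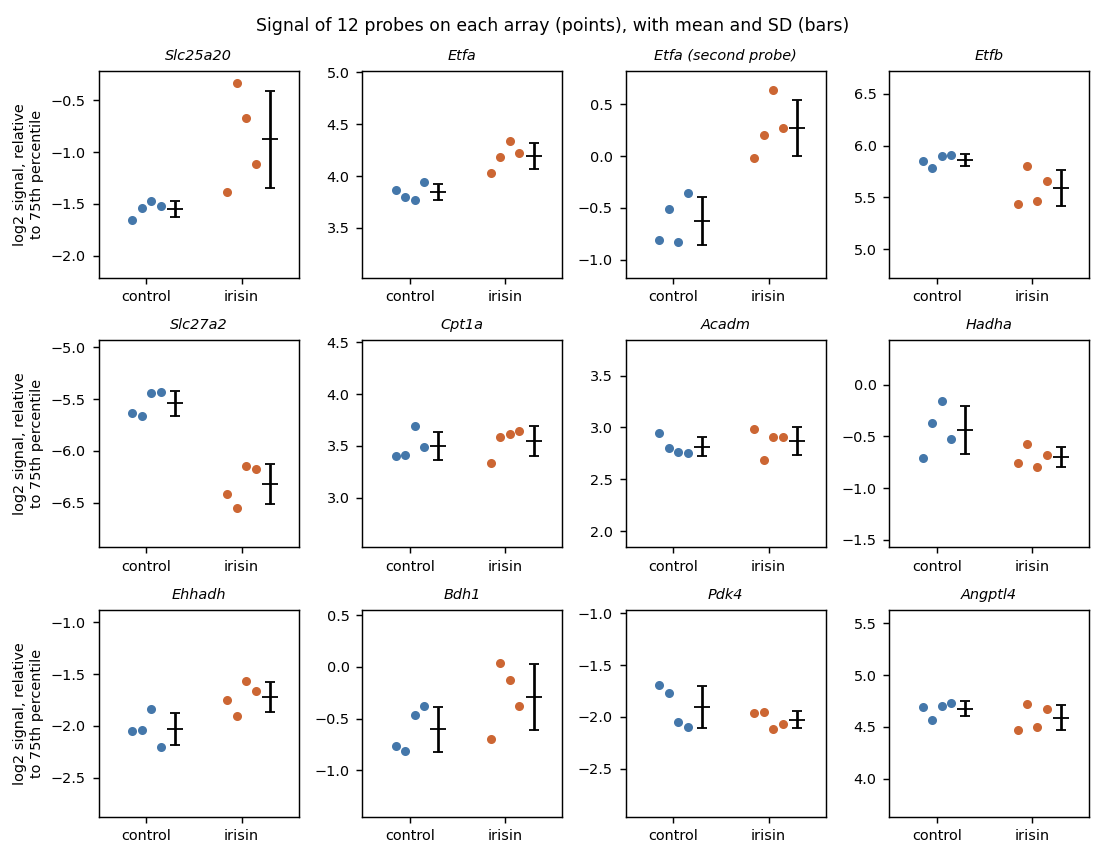
Log2 signal relative to the 75th percentile (vertical axis, 2 units in each panel) of 12 probes on each of the 4 control arrays (blue) and 4 irisin arrays (orange), with the mean and SD of each group beside the points. Both probes of Etfa are higher with irisin and Slc27a2 is lower without overlap, Slc25a20 is spread among the irisin arrays, and the groups of Cpt1a, Acadm, Hadha, Pdk4 and Angptl4 overlap.

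The acyl-CoA dehydrogenases, which open each turn of the spiral for very long (Acadvl), long (Acadl), medium (Acadm) and short chains (Acads), were all uncalled, with log2 differences between -0.10 and 0.085 and adjusted p between 0.498 and 0.735 from limma. Acadm had a log2 signal of 2.95, 2.80, 2.76 and 2.75 in control cells and of 2.99, 2.68, 2.91 and 2.91 in irisin-treated cells. The highest and the lowest of the 8 values were both irisin arrays, and the log2 difference was 0.056 (95% interval -0.15 to 0.26). The intervals of Acadvl (-0.30 to 0.099) and Acadl (-0.088 to 0.26) were of like width.

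The later steps of the spiral were also uncalled, in 5 of 5 genes. Hadha and Hadhb encode the subunits of the trifunctional protein, which carries out the last 3 reactions on long chains, and the genes are neighbors on chromosome 5. Hadha had a log2 signal of -0.71, -0.37, -0.16 and -0.52 in control cells and of -0.75, -0.58, -0.79 and -0.68 in irisin-treated cells. The control arrays spanned most of the range of both groups, and the log2 difference was -0.26 (standard error 0.12, adjusted p = 0.15 from limma). Hadhb was at 0.060 (adjusted p = 0.694 from limma). For shorter chains the hydratase Echs1 was at -0.0021, the dehydrogenase Hadh at -0.046 and the thiolase Acaa2 at 0.052.

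Chains with double bonds need isomerases and a reductase before they can go through the spiral. Eci1, an isomerase of the mitochondria, had a log2 signal of 3.24, 3.22, 3.52 and 3.38 in control cells and of 3.19, 3.45, 3.50 and 3.47 in irisin-treated cells. The groups overlapped, at a log2 difference of 0.062 (95% interval -0.17 to 0.29). The isomerase Eci2 was at -0.17 (adjusted p = 0.199 from limma). Decr1, the dienoyl-CoA reductase, was at -0.34 (adjusted p = 0.0808 from limma). For Decr1 the spot of control replicate 1 was marked as an outlier and left out, so its control group held 3 arrays (4.26 to 4.44) against 3.73 to 4.19 on the irisin arrays. Its second, dimmer probe was at 0.043.

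The electron transfer flavoprotein, made of the subunits Etfa and Etfb, takes electrons from the acyl-CoA dehydrogenases, and Etfdh passes them on to ubiquinone. Etfa had a log2 signal of 3.86, 3.80, 3.77 and 3.95 in control cells and of 4.03, 4.18, 4.34 and 4.22 in irisin-treated cells. All irisin arrays were above all control arrays. The log2 difference was 0.35 (standard error 0.089, adjusted p = 0.015 from limma), which is under 1.5-fold. A second, dimmer probe of Etfa was at -0.81, -0.51, -0.83 and -0.35 in control cells and at -0.02, 0.20, 0.64 and 0.27 in irisin-treated cells. Here too the groups did not overlap, and this probe passed both thresholds with a log2 difference of 0.90 (adjusted p = 0.00153 from limma). It was called with each array left out (0.78 to 0.99) and with each other setting run for single probes (0.69 to 1.47). Both probes of Etfa were thus higher, but the size differed between them. Etfb had a log2 signal of 5.85, 5.78, 5.90 and 5.91 in control cells and of 5.43, 5.80, 5.46 and 5.66 in irisin-treated cells. Irisin replicate 2 was among the control values, and the log2 difference was -0.27 (adjusted p = 0.0703 from limma). Its other probes were at -0.11 and -0.14. Etfdh had a log2 signal of 2.81, 2.67, 2.64 and 2.67 in control cells and of 2.69, 2.92, 2.79 and 2.81 in irisin-treated cells, which overlapped, at a log2 difference of 0.11 (95% interval -0.075 to 0.29).

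Because the scaling of an array cancels in the difference between 2 genes on it, such differences were computed for 6 pairs. The pairs were chosen after their values were seen and are given as a description. An exact permutation test was also run on each pair, but because of that choice its p-values are not used. Relative to the control mean, the difference of Etfa minus Etfb lay between -0.12 and 0.050 across control arrays and 0.40 to 0.89 across irisin arrays. The groups did not overlap, and the shift was 0.62. With single arrays left out it was 0.53 to 0.70. The second probe of Etfa shifted by 1.17 against Etfb, also without overlap. Against Cpt1a and Cpt2, the other members of the shuttle, Slc25a20 shifted by 0.63 and 0.88, without overlap in either. The groups of Slc25a20 and Etfa already did not overlap when taken singly, so the separation of their pairs is no further support. How often pairs of other genes separate was not computed. For Etfa minus Etfdh the groups overlapped, with a shift of 0.24, and for Hadha minus Hadhb they overlapped too, with a shift of -0.32. A trend with signal does not cancel in this way. Etfa and Etfb both lie in the brightest decile of the tested genes, where the median of all genes was -0.15. Etfdh lies in decile 9, where it was -0.051. After quantile normalization and cyclic loess the shift of Etfa minus Etfb was 0.46 and 0.55, without overlap in either. Etfa minus Etfdh, which are nearer in signal, then shifted by 0.32 and 0.29, also without overlap. The shift of Slc25a20 was then 0.55 and 0.54 against Cpt1a and 0.86 and 0.85 against Cpt2.

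**Figure D3:**
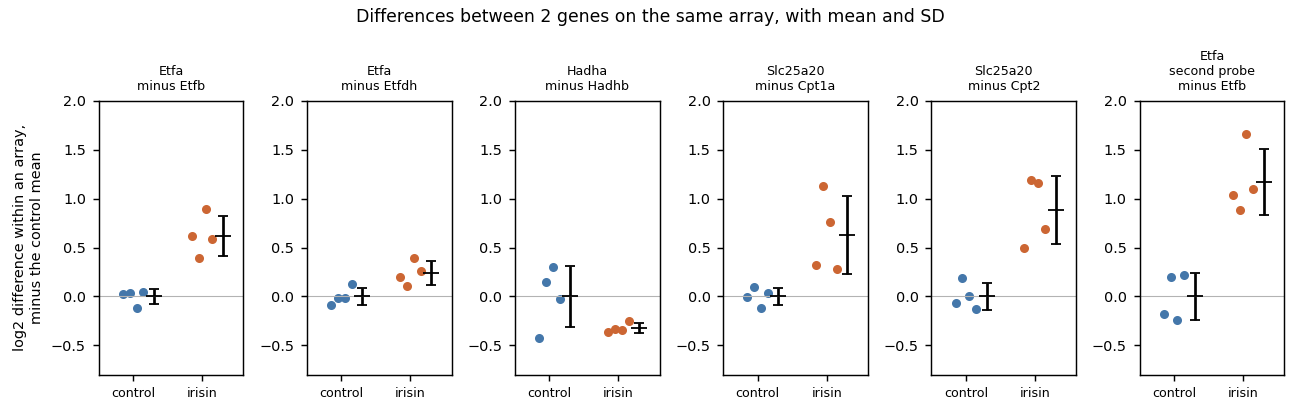
Difference in log2 signal between 2 genes on the same array (vertical axis), minus its control mean, on the 4 control arrays (blue) and the 4 irisin arrays (orange), with mean and SD, for 6 pairs. Etfa against Etfb and Slc25a20 against Cpt1a and Cpt2 are higher on all irisin arrays, by 0.62, 0.63 and 0.88, whereas Etfa against Etfdh and Hadha against Hadhb overlap.

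Peroxisomes shorten very long chains with a set of enzymes of their own, and none of the 4 genes measured was called. Ehhadh, the bifunctional enzyme of the spiral in peroxisomes and a well known PPARA target, had a log2 signal of -2.05, -2.04, -1.83 and -2.21 in control cells and of -1.75, -1.91, -1.57 and -1.66 in irisin-treated cells. Control replicate 3 reached into the irisin range. The log2 difference was 0.31 (standard error 0.11, adjusted p = 0.0554 from limma). Hsd17b4, the other bifunctional enzyme, was at 0.16 (adjusted p = 0.174 from limma). Acaa1a, the peroxisomal thiolase, was at -0.29 (adjusted p = 0.0571 from limma), and since Acaa1b is nearly identical in sequence this value may include its transcripts. Pex11a, which helps peroxisomes to divide, was at -0.20 (95% interval -0.54 to 0.14).

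The 3 genes of ketone bodies among the members were not called. Bdh1, which turns acetoacetate into beta-hydroxybutyrate, had a log2 signal of -0.77, -0.81, -0.47 and -0.38 in control cells and of -0.70, 0.04, -0.12 and -0.38 in irisin-treated cells. Irisin replicates 2 and 3 were the highest of the 8 and the groups overlapped. The log2 difference was 0.31 with a wide 95% interval (-0.048 to 0.68), and the other probes of Bdh1 were at 0.22 and -0.13. Acat1, the mitochondrial thiolase that joins or splits acetoacetyl-CoA, was at -0.0038 (95% interval -0.21 to 0.20). Oxct1, the enzyme with which other tissues use ketone bodies and which is scarce in normal hepatocytes, was well above background on all arrays and was at 0.12 (adjusted p = 0.296 from limma).

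The 3 PPARA targets outside the spiral gave no call either. Pdk4, a kinase that shuts off pyruvate dehydrogenase when fat is burned, had a log2 signal of -1.69, -1.77, -2.05 and -2.10 in control cells and of -1.96, -1.95, -2.12 and -2.07 in irisin-treated cells. The irisin arrays lay within the lower part of the control range or just beneath it, and the log2 difference was -0.12 (95% interval -0.36 to 0.11). Angptl4, a secreted inhibitor of lipoprotein lipase, had a log2 signal of 4.69, 4.57, 4.71 and 4.73 in control cells and of 4.48, 4.72, 4.50 and 4.67 in irisin-treated cells. Its groups overlapped, at -0.085 (adjusted p = 0.562 from limma). Fgf21, a fasting hormone of the liver, was never well above background and was not tested, with signals of -8.44, -8.86, -9.10 and -9.01 in control cells and of -8.33, -9.17, -9.38 and -9.08 in irisin-treated cells.

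The differences of all tested genes varied with the signal of their probes, and their part in the members' values was not tested. The median log2 difference of all genes was -0.57 in the dimmest decile, 0.0091 in the fifth and -0.15 in the brightest. Of the 35 members, 20 lay in the 2 brightest deciles. Of the 11 in the brightest decile, 9 were below 0 and their median was -0.085, closer to 0 than that of all genes there. Etfa was the one of these 11 with the highest value. The members in the 3 dimmest deciles were Slc27a2, Slc27a4 and Acot2.

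**Figure D4:**
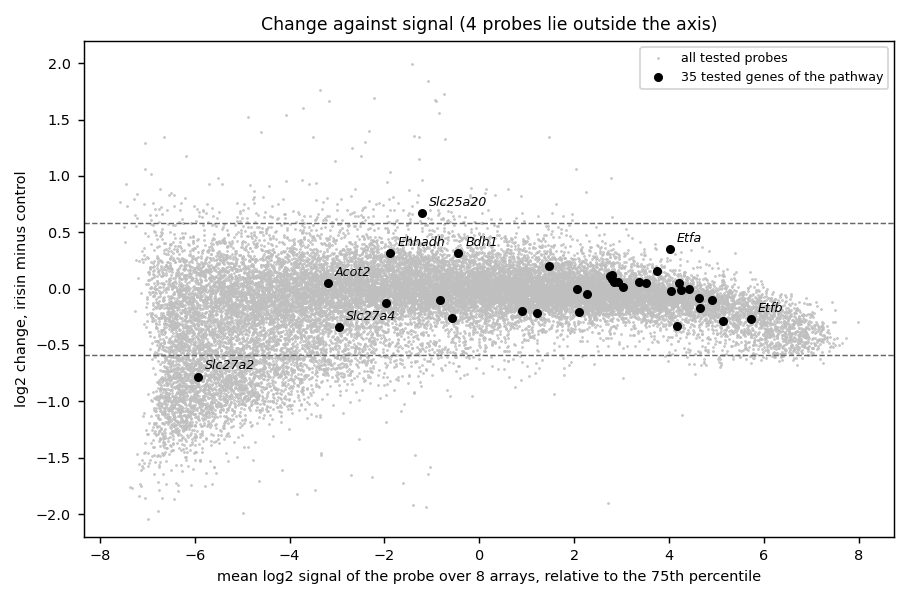
Log2 difference (irisin minus control, vertical axis) against the mean log2 signal over 8 arrays (horizontal axis) for all 24093 tested probes (gray) and the 35 tested genes (black), with dashed lines at 1.5-fold, and 4 probes beyond the axis. Dim probes run down to the left and the brightest fall slightly on the right, and Slc25a20 and Etfa stand above the bulk of probes at their signal.

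The scaling moved the members together with all other genes. With quantile normalization 22 of the 35 were above 0 and limma called none, with 9 at an unadjusted p under 0.05, while 2.0% of all tested genes were called up-regulated and 3.81% down-regulated. With normexp background correction 21 were above 0 and limma called none, with 11 at an unadjusted p under 0.05, against 0.154% up-regulated and 5.51% down-regulated of all genes. With cyclic loess 23 were above 0 and Slc25a20 was called, against 2.14% up-regulated and 3.41% down-regulated of all genes. With scaling to the 8 spike-in probes, RNA added in known amounts, the median of all genes itself was 0.51, 34 members were above 0 and 15 were called up-regulated and none down-regulated, against 33.3% and 1.29% of all genes. The median of the members lay above that of all genes by 0.060 with the 75th percentile, 0.060 with quantile normalization, 0.072 with cyclic loess, 0.061 with spike-in scaling and 0.16 with normexp background correction. With the 75th percentile this gap was 0.021 without irisin replicate 1 and 0.038 without irisin replicate 2, and the median of the members ran from -0.056 to 0.024 with single arrays left out. Slc27a2 was the exception that stayed below 0 with spike-in scaling, at -0.20.

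**Figure D5:**
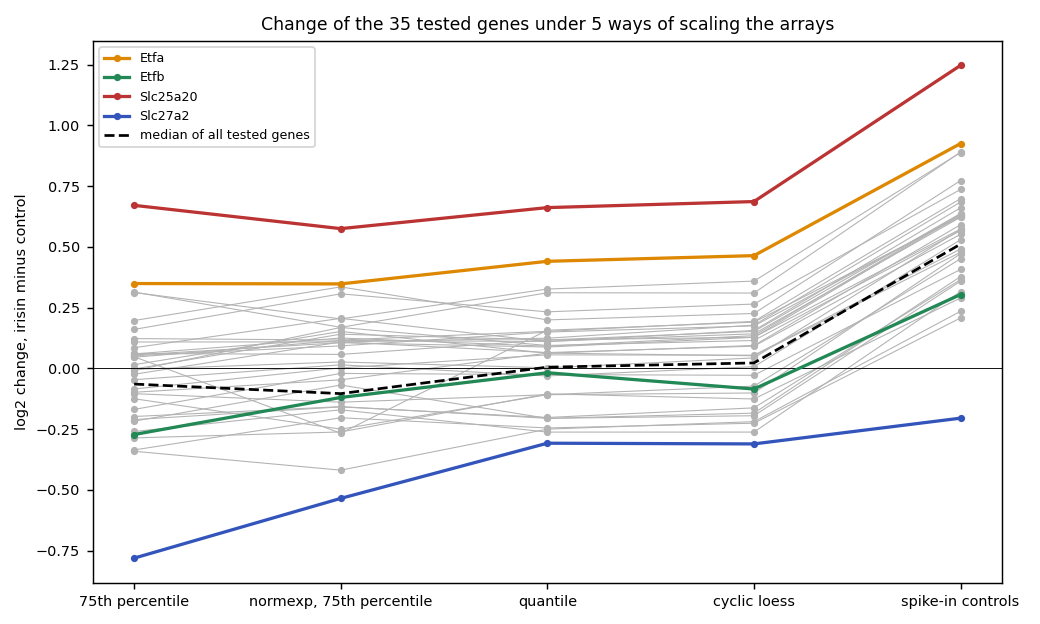
Log2 difference (irisin minus control, vertical axis) of the 35 tested genes under 5 ways of processing the arrays (horizontal axis), 1 line for each gene, with 4 genes in color and the median of all tested genes as a dashed line. The spike-in scaling lifts the whole set along with the median of all genes (0.51), Slc25a20 stays the highest gene throughout, and Slc27a2 stays the lowest.

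Beyond the 36 genes, 52 other genes of oxidation and ketone bodies and 33 genes of PPARA, its partners and its other targets were examined. Of the 52, 49 were tested, with a median of -0.076. Limma called none up-regulated and 3 down-regulated, and an unadjusted p under 0.05 was reached by 2 higher and 11 lower genes. Over all tested genes these shares were 0.531% and 10.2% called, and 29.5% at the unadjusted p. The called genes were Slc27a5, a bile acid and very long chain acyl-CoA synthetase (-0.59, adjusted p = 0.0253 from limma), and the monocarboxylate transporters Slc16a1 (-0.62, adjusted p = 0.00118 from limma) and Slc16a7 (-0.76, adjusted p = 0.00035 from limma), which move lactate and ketone bodies across the cell membrane. All 3 lay in the 3 dimmest deciles and were called neither with quantile normalization nor with cyclic loess. With normexp background correction only Slc16a7 was called (-0.63). With spike-in scaling Slc27a5, Slc16a1 and Slc16a7 were at -0.012, -0.043 and -0.18, and none was called. The groups of Slc27a5 overlapped, and it was just past the threshold, at 1.503-fold lower. A second probe of Slc16a7 was at -0.066.

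Of the 33 PPARA genes, 29 were tested, with a median of -0.11. Limma called none up-regulated and 2 down-regulated, and an unadjusted p under 0.05 was reached by 3 higher and 6 lower genes, beside the same shares of all tested genes (0.531%, 10.2% and 29.5%). Both called genes encode fatty acid omega-hydroxylases, Cyp4a10 (-0.89, standard error 0.10, adjusted p = 0.000179 from limma) and Cyp4a31 (-0.88, standard error 0.10, adjusted p = 0.000221 from limma). Cyp4a10 had a signal of -3.80 ± 0.132 in control cells and -4.69 ± 0.135 in irisin-treated cells (SD, n = 4 in each group), without overlap. A second probe of Cyp4a10 was at -0.78 (adjusted p = 0.00417 from limma). These genes are near copies of each other and their probes may share transcripts, so they are not independent. Both were dim, and both were also called with quantile normalization (-0.68 and -0.65), cyclic loess (-0.64 and -0.62) and normexp background correction (-0.64 and -0.65), but not with spike-in scaling (-0.32 and -0.30). Ppara itself was at -0.21 (adjusted p = 0.171 from limma), with 0.056 and -0.20 for its other probes. The value of Ppara was picked out after it was seen.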

How the data were processed

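Gene expression in 4 control and 4 irisin-treated AML12 samples was measured on 8 one-color Agilent arrays, with the groups taken from the labels. Per the labels and the study's methods, the authors labeled total RNA with Cy3, scanned the slides and ran Agilent Feature Extraction (version 12), which subtracts the background and models the error. The authors deposited the processed signal intensity of each spot on a linear scale, not normalized between arrays, and a table of the same intensity averaged by probe, which matched the scanner files within 0.000500%.

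Spots were averaged for each of 39429 probes, without those marked as outliers (at most 0.463% of an array), and no spot was saturated. From the log2 intensity that of the array's 75th percentile was subtracted. Probes were named by accession through the RefSeq table of GRCm38.p6 (28663 probes, 72.7%). Positions in the files are on mm9, and the only coordinates given are those of the RefSeq promoters. The share of probes well above background was 59.5% to 63.6% in control arrays and 61.8% to 64.1% in irisin arrays. The median signal of negative controls was 18.2 ± 0.957 and 19.5 ± 0.577 (SD, n = 4 in each group). The number of arrays limits the precision.

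A probe was tested when either group had it well above background on its 4 arrays (24093 probes, 14312 genes), using lmFit and eBayes of limma 3.58.1 under R 4.3.3, with 95% intervals from the same fit. The thresholds of 1.5-fold and an adjusted p of 0.05 are those of the study's methods, which name no normalization between arrays. Single differences were tested with an exact permutation test, two-sided, with 70 ways to assign the arrays. In simulated arrays with 200 of 24093 probes changed by 1 on the log2 scale, 87% were recovered with 2 false calls. The simulation had independent normal noise, as many changes up as down, no slide difference and no trend with signal. It therefore gives no rate of false calls for the real arrays.

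The members, the other gene lists, the rule for named genes and the alternatives were chosen with earlier results of these data known. All members were named, and each array's value was given for those called with the 75th percentile, quantile normalization or cyclic loess, for 1 gene of each step and for Fgf21 and Angptl4. Values of Etfa, Etfb, Slc27a4, Decr1 and other probes were added after they were seen. The alternatives were normexp background correction (offset 50), quantile normalization, cyclic loess, scaling to the median of detected probes or to 8 spike-in probes, the deposited table, all probes tested, only probes well above background on 8 arrays tested, marked spots kept, robust eBayes with a trend on signal, the methods' test, the replicate number as a block, the adjusted p alone, the average of all probes of a gene, and each array left out. In the normexp fit the median spot signal was used, and 16 spots on 2 arrays with a local background above 5 times the median were left out, a choice made after seeing the data. Python 3.11.15, pandas 2.3.3 and matplotlib 3.10.9 were used. Same-numbered samples were not taken as pairs.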

Additional observations from a re-analysis of the deposited data

How the results depend on the processing

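Of 683 values of single genes recomputed under the alternatives, 603 kept their direction and side of the thresholds, 55 turned in direction, 14 became calls and 11 lost a call. The methods' test was run for counts of calls and is not among the 683, and it did not call Slc25a20. No value that turned belonged to a called gene, and the cause of each was not tested. With normexp background correction the log2 differences turned for Acsl5 (0.11), Acot1 (0.17), Acot2 (-0.27), Echs1 (0.14), Hadh (0.015), Acat1 (0.027) and Angptl4 (0.0023). With quantile normalization they turned for Acsl5 (0.065), Acot1 (0.095), Acadvl (0.063), Echs1 (0.12), Acat1 (0.0028) and Angptl4 (0.056). With cyclic loess they turned for Acsl5 (0.092), Acot1 (0.12), Acadvl (0.052), Echs1 (0.13), Hadh (0.0071), Acat1 (0.043) and Angptl4 (0.055). With spike-in scaling, which lifts the median of all genes to 0.51, they turned for Slc27a4 (0.24), Acsl3 (0.36), Acsl5 (0.55), Acot1 (0.57), Cpt2 (0.37), Acadvl (0.48), Acads (0.47), Hadha (0.32), Echs1 (0.57), Hadh (0.53), Eci2 (0.41), Decr1 (0.21), Etfb (0.30), Acaa1a (0.29), Pex11a (0.38), Acat1 (0.57), Pdk4 (0.45) and Angptl4 (0.49). With single arrays left out the value crossed 0 for Acaa2 (-0.0062 to 0.14), Acat1 (-0.061 to 0.063), Acot1 (-0.17 to 0.11), Acot2 (-0.088 to 0.15), Acsl4 (-0.11 to 0.20) and Echs1 (-0.056 to 0.045).

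The number of members called up-regulated was 0 with normexp background correction, quantile normalization and the methods' test, 2 with the adjusted p alone and with the mean over probes, 15 with spike-in scaling, and 0 to 1 with single arrays left out. The number called down-regulated was 0 with quantile normalization, normexp, cyclic loess and spike-in scaling and 2 with the adjusted p alone. The median of the members was 0.57 with spike-in scaling, 0.065 with quantile normalization and 0.095 with cyclic loess. Of the other oxidation and ketone genes 1 was down-regulated with normexp background correction, 0 with quantile normalization, spike-in scaling and cyclic loess, 9 with the adjusted p alone and 1 to 3 with single arrays left out (1 without irisin replicate 1), and 16 were up-regulated with spike-in scaling. Of the PPARA genes 2 were up-regulated with the adjusted p alone and 9 with spike-in scaling, and 0 were down-regulated with spike-in scaling. These 3 lists held 35, 49 and 29 tested genes. Over all tested genes, spike-in scaling called 33.3% up-regulated and 1.29% down-regulated. The adjusted p alone was passed by 2.65% of all tested genes as higher and by 17.9% as lower.

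The replicate numbers were shared between the groups, but same-numbered arrays did not deviate together (correlations of 0.11, -0.35, -0.13 and 0.17), and 2 of the 4 control arrays correlated best with their own number. With the replicate number as a block, 1 member was called up-regulated and 1 down-regulated, as without it. Signal over background limits what can be resolved, and 3 members lay in the 3 dimmest deciles of the tested genes.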

Other observations

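Some genes of the other lists passed the adjusted p alone, under 1.5-fold. Lpin1, a coactivator of PPARA and a phosphatidate phosphatase, was at a log2 difference of 0.34 (adjusted p = 0.0448 from limma), and Txnip, an inhibitor of thioredoxin, was at 0.35 (adjusted p = 0.0104 from limma). A second probe of Txnip was at -0.36 (adjusted p = 0.0387 from limma), so its probes passed in opposite directions and give Txnip no direction. Cidea, a lipid droplet protein, was at -0.48 (adjusted p = 0.00435 from limma) and the acyl-CoA dehydrogenase Acad10 at -0.46 (adjusted p = 0.0118 from limma). These genes were picked out after their values were seen. Of these, Lpin1 and Cidea lay in the 3 dimmest deciles of the tested genes.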
